A study of Mus musculus with 7 samples.

Results

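Collagen chains, the polypeptides from which collagens are assembled, were examined in sorted luminal cells of the mouse prostate, its secretory epithelium. Members were all genes whose symbol on the array platform is Col followed by a number, the letter a and a number. This gave 42 chain genes, measured by 82 probe sets, of 18193 genes and 45037 probe sets in all. They comprise 11 fibrillar chains, 8 basement membrane chains, 9 fibril-associated chains, 4 transmembrane chains and 10 chains of other kinds. There were 4 arrays of T-ETV1 cells (A to D) and 3 arrays of wild-type cells (WT, A to C), and the comparison addresses how gene expression in luminal cells differs with the T-ETV1 allele. T-ETV1 mice carry a cDNA of human ETV1, an ETS family transcription factor, driven by the mouse's own Tmprss2 promoter, so the transgene depends on where that promoter is active. Cells of both genotypes were sorted as negative for CD31, CD45, Ter119 and Sca1 and positive for CD49f. A GFP gate was added for T-ETV1 cells alone, and its effect and that of the genotype cannot be told apart. The labels give no age, strain background or number of animals for any array. The series text calls its 3 replicates biological, but no label ties an array to an animal, so p-values measure the spread between these arrays. The transgene itself was not checked here, because it is human and the probe sets of mouse Etv1 are annotated to several genes.

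Collagens are trimers of alpha chains wound into a triple helix, which are secreted or held in the membrane and build the extracellular matrix. Fibrillar collagens form the cables of connective tissue and are made mainly by fibroblasts and smooth muscle cells. Type IV collagen forms the sheet of the basement membrane on which epithelium, endothelium and muscle rest, and epithelial and stromal cells both contribute to it. In the prostate the basement membrane lies under the basal cell layer, and the fibromuscular stroma lies outside it.

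Each chain is represented by its brightest probe set, and differences are T-ETV1 minus WT on the log2(intensity + 16) scale, which understates the change of dim genes. Median intensities ran between 48.5 in T-ETV1 A and 73.7 in WT C, and precision is limited by how few arrays there are. Krt8, a keratin of luminal cells, had intensities of 6029, 8523, 5505 and 6269 in T-ETV1 A to D, against 5612, 7234 and 6046 in WT A to C. Krt14, a basal cell keratin, had 35.2, 19.9, 1191 and 23.6 in T-ETV1 A to D, against 219, 866 and 3034 in WT A to C. The luminal keratin was high on every array, while the basal keratin was high in T-ETV1 C alone of its group and highest of all in WT C. Each of these 2 arrays had the highest Krt14 of its group, and the main results are also given without them. T-ETV1 C stood far above the other T-ETV1 arrays, while the WT arrays rose by steps from A to C. The deposited table holds no detection calls, and 12 of the 42 chains stayed under an intensity of 50 on every array, as did 28.6% of all genes.

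No collagen chain was called different in T-ETV1. By limma with Benjamini-Hochberg adjustment over all genes, 0 of the 42 chains and 0% of all genes had an adjusted p under 0.05. For the chains the lowest such value was 0.724. At an unadjusted p under 0.05 there were 7 chains, against 6.12% of all genes. Of these 7 chains 6 were lower in T-ETV1 (4.12% of all genes were) and 1 was higher (2% of all genes were). Of the 42 chains 37 (88.1%) had a negative difference, as had 55.6% of all genes, and the median over the chains was -0.84, against -0.03 over all genes. Quantile normalization left 36 chains negative, and median centring, which moved the median of all genes to 0.11, left 32. A difference below -1 was found for 19 chains (45.2%) and for 4.67% of all genes, and one above 1 for 0 chains and 0.715% of all genes. By the brightest probe set, every T-ETV1 array lay below every WT array in 4 chains, Col1a2, Col3a1, Col5a2 and Col15a1. This was so in 3.9% of all genes, while 0 chains and 2.42% of all genes had every T-ETV1 array above every WT array. On another probe set of Col1a2 and of Col5a2 the groups overlapped. The number of chains at an unadjusted p under 0.05 was 16 without T-ETV1 C, 2 without T-ETV1 A and 4 without WT C. The share of all genes at that p is not given for these settings. Over all genes 27 passed the adjusted threshold without T-ETV1 C, 0 without T-ETV1 A and 7 without WT C, against 0 with all 7 arrays. The median over the chains was -0.93 without T-ETV1 C, -0.34 without WT C, -0.58 without both and -1.29 without WT A.

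**Figure D1:**
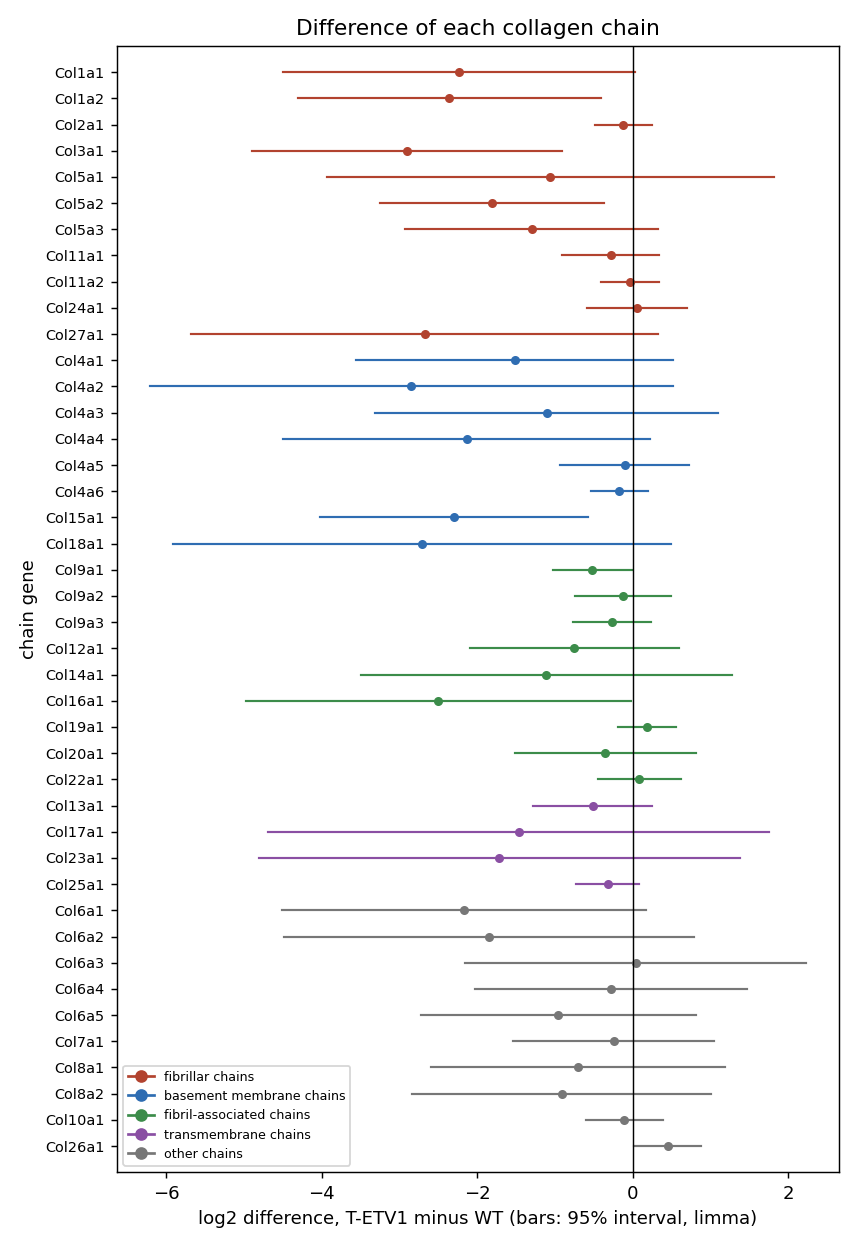
Log2 difference, T-ETV1 minus WT, of each of the 42 collagen chains (points, coloured by class), with the 95% interval from the limma fit of 4 against 3 arrays (bars). All 8 basement membrane chains lie below 0, yet the intervals of 7 chains alone exclude 0, and none passed after adjustment.

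The chains that form the bulk of connective tissue fibrils were lower on average in T-ETV1. Col3a1, the chain of type III collagen of reticular fibres, had intensities of 56.8, 122, 695 and 248 in T-ETV1 A to D, against 1036, 1028 and 3456 in WT A to C. The groups did not overlap, and the highest T-ETV1 array was C. Its log2 level averaged 7.70 ± 1.4 (SD, n = 4) in T-ETV1 and 10.61 ± 1.0 (SD, n = 3) in WT. The difference was -2.91 ± 0.84 (SE, limma adjusted p = 0.724), a ratio of T-ETV1 to WT of 0.133 on that scale. A dimmer probe set of Col3a1 had 41.5, 44.3, 40.7 and 41.9 in T-ETV1 A to D, against 44.4, 86.7 and 369.9 in WT A to C, so that T-ETV1 C did not stand out on it.

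Col1a2, which encodes the alpha 2 chain of type I collagen, had 46.9, 176, 197 and 136 in T-ETV1 A to D, against 288, 442 and 2677 in WT A to C. The groups were again apart, with WT C far above the other WT arrays. The difference was -2.36 ± 0.81 (SE, limma adjusted p = 0.772). Its partner Col1a1 had 31.6, 52.8, 139 and 316 in T-ETV1 A to D, against 162, 481 and 1746 in WT A to C. Here T-ETV1 D exceeded WT A, and the difference was -2.24 ± 0.95 (limma adjusted p = 0.814). Col5a2, a chain of type V collagen, which starts the assembly of fibrils, had 17.1, 75.5, 24.4 and 17.6 in T-ETV1 A to D, against 92.6, 76.4 and 378 in WT A to C. T-ETV1 B and WT B almost met, and the difference was -1.81 ± 0.60 (limma adjusted p = 0.758).

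The other type V chains varied more. Col5a1 had 16.3, 13.2, 258 and 45.2 in T-ETV1 A to D, against 10.8, 134 and 552 in WT A to C. The WT arrays spanned the whole range of the T-ETV1 arrays (difference -1.06 ± 1.2). On another probe set of Col5a1 the groups did not overlap, with 27.8, 4.38, 13.1 and 14.65 in T-ETV1 A to D, against 52.75, 39.25 and 189 in WT A to C (difference -1.62). On its remaining, dimmer probe set they overlapped. Col5a3 had 2.40, 4.52, 99 and 7.46 in T-ETV1 A to D, against 37.9, 62.2 and 98.5 in WT A to C, so that T-ETV1 C lay at the WT level and the other T-ETV1 arrays below it (difference -1.30 ± 0.68). Col27a1, a minor fibrillar chain known from cartilage, had 67.4, 3.94, 843 and 17.3 in T-ETV1 A to D, against 314, 680.1 and 637 in WT A to C. T-ETV1 C was the highest of all 7 arrays and the other T-ETV1 arrays the lowest, with a difference of -2.68 ± 1.26 (limma adjusted p = 0.830). The other probe set of Col27a1 had 16.4, 60.5, 146 and 28.5 in T-ETV1 A to D, against 168, 230 and 245 in WT A to C. On it T-ETV1 C lay below every WT array. Col2a1, Col11a1 and Col11a2, chains of cartilage fibrils, and Col24a1, a minor fibrillar chain, stayed under 50 on every array, with differences between -0.29 and 0.05.

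Of the 11 fibrillar chains 10 were lower in T-ETV1 on average, with a median of -1.30, and 3 had an unadjusted p under 0.05. Over all genes 55.6% were lower and 6.12% had such a p. In bulk samples such as these, fewer cells of a type and less RNA per cell cannot be told apart. All 14 fibroblast markers were lower in T-ETV1 on average too (median -1.09). Their median was -0.22 without WT C, -0.50 without both arrays C and -1.90 without WT A, while that of the fibrillar chains was -1.03, -1.10 and -2.09 in the same settings. Their summed intensity was 8282 to 17060.2 in T-ETV1 arrays and 12012 to 39988 in WT arrays. Pdgfra, a receptor that marks fibroblasts, had 89.2, 231, 1279 and 293 in T-ETV1 A to D, against 182, 486 and 2789 in WT A to C, and no array had it near 0. Of 14 smooth muscle and pericyte markers 12 were lower (median -1.06, and -0.63 without WT C), with summed intensities of 392 to 1495 in T-ETV1 and 1048 to 6512 in WT. Acta2, the smooth muscle actin, had 38.4, 37.0, 351 and 53.7 in T-ETV1 A to D, against 220.5, 554 and 2458 in WT A to C. The part of these cells in the collagen differences was not tested.

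**Figure D2:**
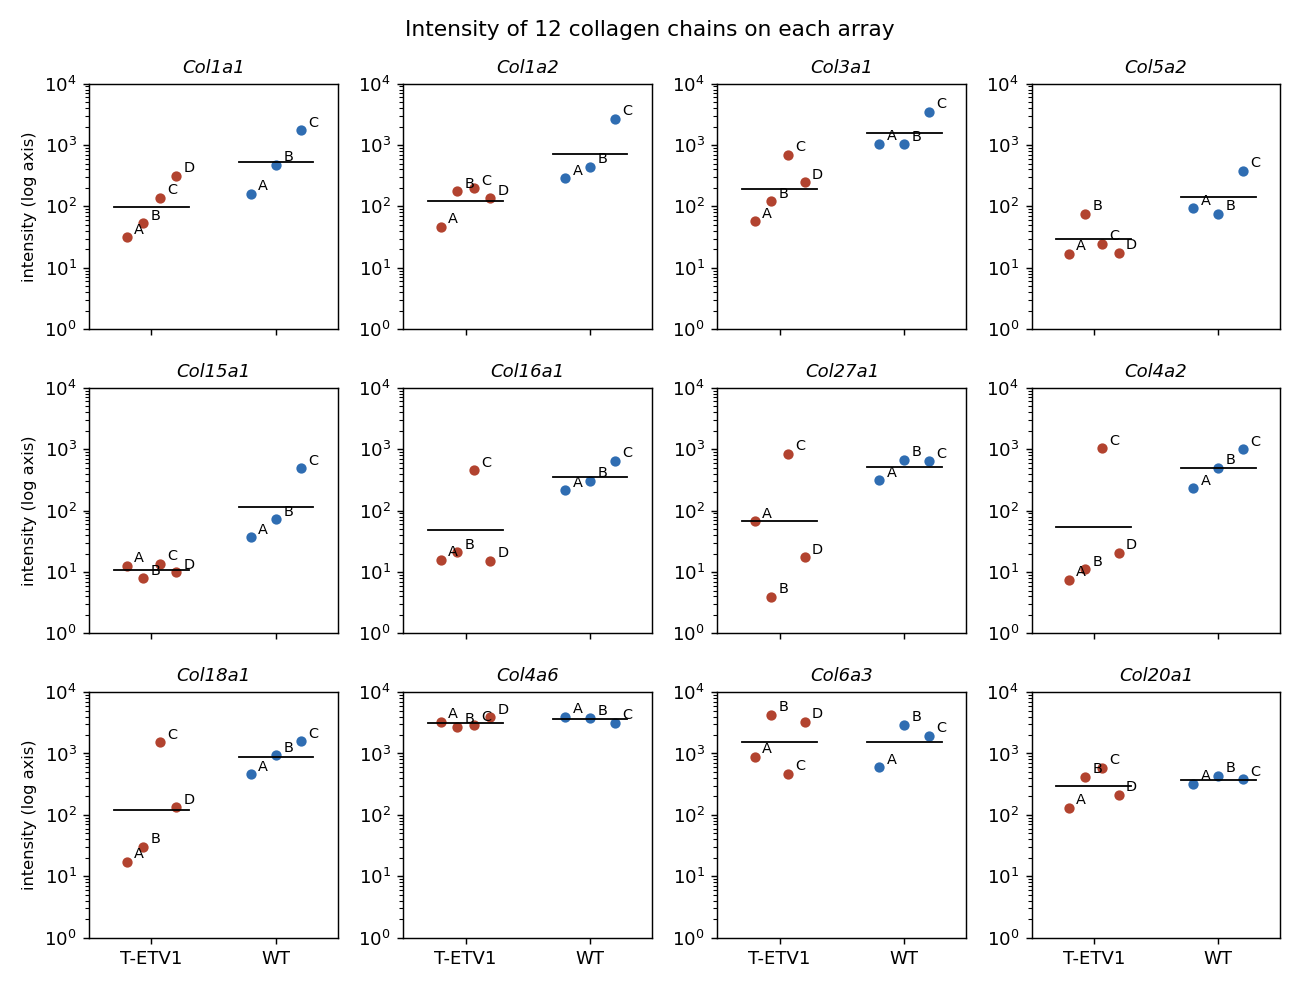
Intensity on a log axis of 12 collagen chains, chosen after their values were seen, on each array, labelled by its letter, with T-ETV1 at the left and WT at the right and a line at the mean of log2(intensity + 16) turned back to intensity. On the brightest probe sets, which are shown, Col1a2, Col3a1, Col5a2 and Col15a1 have no overlap between groups. T-ETV1 C lies among or above the WT arrays in Col4a2, Col16a1, Col18a1 and Col27a1, and Col4a6 varies least. Other probe sets of Col1a2, Col5a2 and Col27a1 differ in this.

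Several basement membrane chains were low in T-ETV1 A, B and D and at the WT level in T-ETV1 C. Col4a1 and Col4a2 encode the chains of the common type IV trimer and lie head to head in the genome. Col4a2 had intensities of 7.5, 11, 1038 and 20.6 in T-ETV1 A to D, against 232, 503 and 995 in WT A to C. T-ETV1 C lay just above WT C, and the other T-ETV1 arrays lay below every WT array. The difference was -2.85 ± 1.41 (SE, limma adjusted p = 0.838), with an SD of 2.62 over the T-ETV1 arrays and of 1.02 over the WT arrays. Col4a1 had 265, 107, 1322 and 149 in T-ETV1 A to D, against 454, 959.9 and 1314 in WT A to C, again with T-ETV1 C alone at the WT level. Its difference was -1.52 ± 0.85 (limma adjusted p = 0.865), and its other probe set differed by -2.06.

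Col18a1, whose product carries the endostatin domain and sits in vascular and epithelial basement membranes, had 17, 30.3, 1527 and 134 in T-ETV1 A to D, against 458, 935 and 1590.3 in WT A to C. Again T-ETV1 C stood at the WT level, and the difference was -2.71 ± 1.34 (limma adjusted p = 0.838). Its other probe set showed that order too, with 45.7, 31.7, 1023 and 74.4 in T-ETV1 A to D, against 244, 695 and 846 in WT A to C. Col15a1, the related chain of vessel and muscle basement membranes, did not. It had 12.7, 7.94, 13.5 and 9.86 in T-ETV1 A to D, against 36.6, 71.8 and 486 in WT A to C. All T-ETV1 arrays lay close together at the bottom of the scale, T-ETV1 C included, and the difference was -2.30 ± 0.72 (limma adjusted p = 0.751).

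The chains of the rarer type IV trimers were of 2 kinds. Col4a3 and Col4a4, known from the kidney filter, varied widely between arrays, as the common chains did. Col4a4 had 16.2, 122, 282 and 17.4 in T-ETV1 A to D, against 150.4, 264 and 980.0 in WT A to C (difference -2.14 ± 0.99). Col4a3 had 13.1, 20.5, 198 and 22.6 in T-ETV1 A to D, against 28.1, 91.7 and 327 in WT A to C (difference -1.11 ± 0.92). In both, C was the highest array of its group and T-ETV1 C lay among the WT arrays, but below WT C. T-ETV1 C minus WT C was -0.68 for Col4a3 and -1.74 for Col4a4, against 0.01 for Col4a1 and 0.06 for Col4a2. Col4a5 and Col4a6, which share a trimer in some epithelial and muscle basement membranes, varied little. Col4a6 had 3253, 2748, 2938 and 3880.1 in T-ETV1 A to D, against 3928, 3730.0 and 3176 in WT A to C. Its groups overlapped and its log2 level averaged 11.64 ± 0.22 (SD, n = 4) in T-ETV1 and 11.82 ± 0.16 (SD, n = 3) in WT. The difference was -0.18 and its 95% interval ran from -0.54 to 0.19. Col4a5 had 618, 420.0, 705 and 512 in T-ETV1 A to D, against 495, 404 and 1051 in WT A to C, with a difference of -0.10 and an interval from -0.93 to 0.73. The sign of Col4a5 was unsettled, at 0.30 without WT C, 0.03 after median centring and 0.025 without T-ETV1 B.

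Over all genes 55.6% were lower in T-ETV1 on average and 6.12% had an unadjusted p under 0.05. As a class, all 8 basement membrane chains were lower (median -1.83), and 1, Col15a1, had such a p. The median was -2.29 without T-ETV1 C, -1.27 without WT C and -1.65 without both. Endothelial and basal markers were lower on average too. Between the 2 arrays C, T-ETV1 minus WT, the median was -0.34 for the basement membrane chains, -0.14 for basal markers and -1.74 for endothelial markers. All 13 endothelial markers were lower (median -1.93), with summed intensities of 780.2 to 3046 in T-ETV1 and 2234 to 8003 in WT. Pecam1 (CD31), which the sort selected against, had 8.21, 8.84, 46.2 and 8.97 in T-ETV1 A to D, against 13.6, 42.9 and 205 in WT A to C. All 7 basal markers measured were lower (median -2.58), with summed intensities of 3372 to 19076 in T-ETV1 and 7570.2 to 21019 in WT. Of 12 leukocyte markers 11 were lower (median -0.84, with 0.46 without WT C, -1.55 without WT A and -1.47 without WT B), with summed intensities of 173 to 7706 in T-ETV1 and 155 to 14972 in WT. Ptprc (CD45) had 6.92, 8.30, 56.0 and 4.56 in T-ETV1 A to D, against 5.78, 4.63 and 467 in WT A to C, so that WT A and B had as little of it as T-ETV1 A, B and D. The part of other cells in these differences was not tested.

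To show the start sites of chains with unlike array patterns, 4 genes were taken. On the brightest probe sets, T-ETV1 C stayed below the WT arrays for Col1a2 and Col3a1 and did not for Col18a1 and Col17a1. On another probe set of Col1a2 it lay among them. The upstream bases of these 4 genes are printed. They are the 250 bases before the start from RefSeq on GRCm38.p6, read 5′ to 3′ on the gene's strand. Capitals mark the TATA box (TATAAA), the CCAAT box (CCAAT) and the GC box (GGGCGG) on either strand. Col1a2 lies at chr6:4505368-4505617 (plus strand), Col3a1 at chr1:45311288-45311537 (plus strand), Col18a1, by the first of its 2 listed starts, at chr10:77166531-77166780 (minus strand), and Col17a1, a transmembrane chain, at chr19:47692043-47692292 (minus strand).
Col1a2: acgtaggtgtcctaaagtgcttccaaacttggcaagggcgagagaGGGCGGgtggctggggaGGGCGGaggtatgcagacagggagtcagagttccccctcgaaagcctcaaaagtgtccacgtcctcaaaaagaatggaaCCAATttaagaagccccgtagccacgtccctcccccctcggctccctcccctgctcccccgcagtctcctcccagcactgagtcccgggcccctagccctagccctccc
Col3a1: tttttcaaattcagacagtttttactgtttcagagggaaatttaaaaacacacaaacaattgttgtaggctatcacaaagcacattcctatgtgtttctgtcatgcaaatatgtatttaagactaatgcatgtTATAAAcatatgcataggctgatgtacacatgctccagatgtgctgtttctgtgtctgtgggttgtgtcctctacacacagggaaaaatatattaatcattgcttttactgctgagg
Col18a1: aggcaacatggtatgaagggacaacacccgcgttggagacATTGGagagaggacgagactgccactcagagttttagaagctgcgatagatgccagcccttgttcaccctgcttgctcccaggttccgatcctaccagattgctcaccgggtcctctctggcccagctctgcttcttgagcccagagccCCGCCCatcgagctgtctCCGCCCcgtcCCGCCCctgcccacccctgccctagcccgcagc
Col17a1: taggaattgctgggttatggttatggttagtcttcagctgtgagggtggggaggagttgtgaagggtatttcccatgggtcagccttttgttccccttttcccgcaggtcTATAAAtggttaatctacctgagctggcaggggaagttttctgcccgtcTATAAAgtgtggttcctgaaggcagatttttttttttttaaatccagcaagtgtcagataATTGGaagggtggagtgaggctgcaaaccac
The Col1a2 stretch holds 2 GC boxes and 1 CCAAT box, and that of Col3a1 holds 1 TATA box. The Col18a1 stretch holds 3 GC boxes near the start and 1 CCAAT box farther up, and that of Col17a1 holds 2 TATA boxes and 1 CCAAT box. By the brightest probe sets, a GC box thus occurs both in a chain with T-ETV1 C below the WT arrays and in one with T-ETV1 C among them. The same is so for a TATA box. These 4 genes were picked by their array patterns, and whether boxes go with patterns was not tested. Windows of this length were listed for 33 of the 42 chains, 36 windows in all. A GC box was in 58.3% of these and in 32.7% of all 32851 windows of the RefSeq table, a CCAAT box in 36.1% and 33.8%, and a TATA box in 13.9% and 12.4%. The letters CCGGAA, a core that many ETS factors bind, were in 0 of the 36 windows on either strand and in 12% of all windows. Matches describe letters only, and nothing about binding follows from them or from their lack.

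Fibril-associated collagens have interrupted helices and sit on the surface of fibrils. Col16a1, found in skin and around smooth muscle, had the largest difference among them. It had 15.8, 20.9, 455 and 15.2 in T-ETV1 A to D, against 214, 306 and 642 in WT A to C. T-ETV1 A, B and D lay close together below every WT array, while T-ETV1 C lay among them. The difference was -2.50 ± 1.04 (SE, limma adjusted p = 0.812). Without both arrays C, a setting chosen after seeing the data, it was -3.04, and Col16a1 was then the only chain past the threshold (limma adjusted p = 0.0226).

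Col14a1, known from dense connective tissue, had 1, 1, 52.9 and 17 in T-ETV1 A to D, against 4.74, 19.9 and 297 in WT A to C. Its difference rested on WT C, at -1.11 with that array and 0.06 without it. Col12a1, its relative, had 85.5 in WT C and at most 13.0 elsewhere. Col20a1 had 130.3, 419, 591 and 213 in T-ETV1 A to D, against 323, 434 and 379 in WT A to C. The WT arrays lay within the range of the T-ETV1 arrays, and the difference was -0.35 ± 0.49. Col9a1, Col9a2 and Col9a3, chains of cartilage type IX collagen, Col19a1 and Col22a1 stayed under 50 throughout. Among these Col9a1 had an unadjusted p under 0.05 (difference -0.52 ± 0.21), but its other probe set had a difference of 0.06. Of the 9 fibril-associated chains 7 were lower, as were 55.6% of all genes. The median of these chains was -0.35, which became -0.15 when T-ETV1 A was left out and -0.62 when T-ETV1 C was.

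Transmembrane collagens span the cell membrane, and Col17a1 anchors basal epithelial cells to the basement membrane through hemidesmosomes. Col17a1 had 4.48, 37.3, 448 and 10.2 in T-ETV1 A to D, against 28.1, 131 and 704 in WT A to C. In both groups C was the highest, as it was for Krt14, and the difference was -1.47 ± 1.35 (SE, limma adjusted p = 0.914). Col23a1 had 35.2, 5.48, 672 and 3.75 in T-ETV1 A to D, against 83.6, 214 and 356 in WT A to C, with T-ETV1 C above every WT array (difference -1.72 ± 1.29). Its 2 other probe sets were also highest in T-ETV1 C, at 229.6 and 127. Col13a1, a chain of cell adhesion sites, had 52.0 in WT C and at most 16.8 elsewhere, and Col25a1, known from neurons, had at most 12.1. All 4 transmembrane chains were lower on average, as were 55.6% of all genes. The median of these chains was -0.995, with -0.42 without WT C and -1.52 without WT A.

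Sox10, a transcription factor that marks Schwann cells, had 4.12, 5.22, 207 and 5.12 in T-ETV1 A to D, against 128, 191 and 105 in WT A to C. It was low in the same 3 T-ETV1 arrays in which Col4a2, Col16a1, Col18a1, Col23a1 and Col27a1 were low, and near 0 there, although 1 of its other probe sets had a difference of the opposite sign. This order was not particular to Sox10. The basal marker Krt5 had 24.7, 16.4, 1753 and 205 in T-ETV1 A to D, against 349 to 2364 in WT. The endothelial marker Cdh5 had 68.6, 17.6, 872 and 1, against 515 to 1483, while Plvap, also endothelial, stayed low in T-ETV1 C (6.43, against 49.25 to 326). All 6 Schwann cell markers measured were lower on average (median -1.76). Erbb3, a receptor that was bright on every array, made up most of their summed intensity and differed by -0.02. The other 5 summed to 20.8, 19.7, 709 and 24.1 in T-ETV1 A to D, against 415, 616.5 and 558 in WT A to C, with T-ETV1 C the highest array. The bearing of this on the chains was not tested.

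Among the remaining chains, those of type VI collagen, which forms beaded filaments around cells, did not move together. Col6a1 had 23.2, 91.6, 119.7 and 19.9 in T-ETV1 A to D, against 65.3, 251 and 1268 in WT A to C (difference -2.17 ± 0.98). Col6a2 had 39.0, 26, 128 and 21.7 in T-ETV1 A to D, against 24.1, 205 and 1103 in WT A to C (difference -1.85 ± 1.10). In both, WT A lay among the T-ETV1 arrays and WT C far above all others. Col6a3, which completes the same trimer, had 881, 4233, 463 and 3251 in T-ETV1 A to D, against 599, 2938 and 1943 in WT A to C. It was low in T-ETV1 A and C and in WT A and high in T-ETV1 B and D and in WT B, an order found in neither partner. Its difference was 0.03 ± 0.92, and its sign turned without T-ETV1 B (-0.45), T-ETV1 D (-0.32) or WT A (-0.62). Col6a4 had 12.7, 83.7, 175 and 44.9 in T-ETV1 A to D, against 25.5, 109 and 137 in WT A to C (difference -0.29 ± 0.73). Col6a5 had 150.0 in WT C and at most 9.30 elsewhere.

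Col7a1, the chain of the anchoring fibrils under stratified epithelia, had 181, 229.8, 646 and 185 in T-ETV1 A to D, against 166, 390.4 and 496 in WT A to C. Its groups overlapped (difference -0.25 ± 0.54), and T-ETV1 C was the highest array. Col8a2, a short-chain collagen of the cornea, had 19.0, 43.8, 291 and 21.2 in T-ETV1 A to D, against 61.3, 151 and 163 in WT A to C, and T-ETV1 C was again the highest (difference -0.92 ± 0.81). Its relative Col8a1, found in vessel walls, had 53.9 in T-ETV1 A, 128 in WT C and at most 13.6 elsewhere. Col10a1, known from growth plate cartilage, stayed between 20 and 46.7. Col26a1 was the chain with an unadjusted p under 0.05 that was higher in T-ETV1. It had 29.9, 17.4, 20.8 and 32.2 in T-ETV1 A to D, against 19.6, 11.5 and 10.9 in WT A to C, all low values, with a difference of 0.45 ± 0.18 (limma adjusted p = 0.804). Of these 10 chains 8 were lower, as were 55.6% of all genes. The median of these chains was -0.49, with 0.05 without WT C and -1.07 without WT A.

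**Figure D3:**
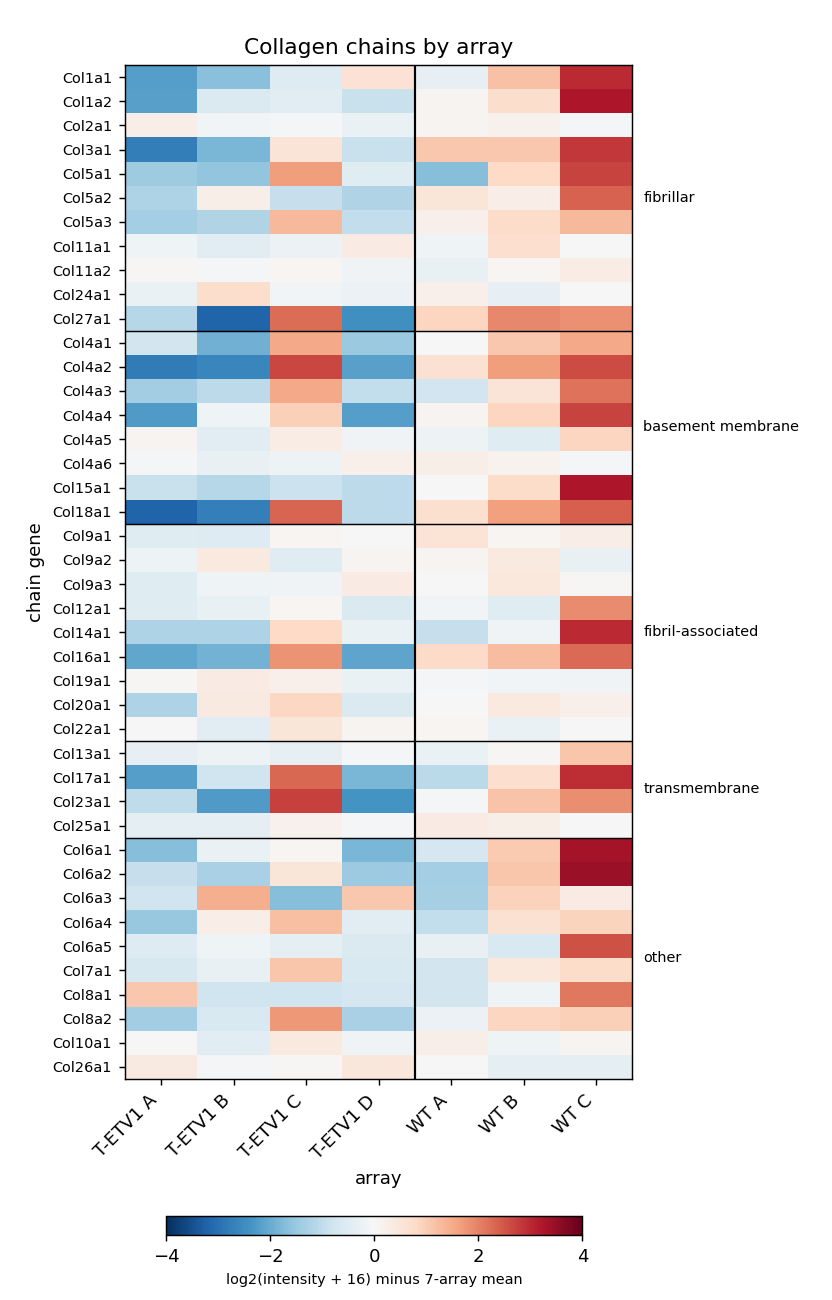
Log2(intensity + 16) of each of the 42 chains on each array minus its mean over the 7 arrays (colour), with T-ETV1 arrays at the left of the line, WT arrays at its right, and chains grouped by class. Of the 42 chains 11 are highest of all arrays in T-ETV1 C and 20 in WT C. The shares over all genes are not given, and these 2 arrays have the highest median intensities, 62.9 in T-ETV1 C and 73.7 in WT C.

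The spread within a genotype was large. Of the 42 chains 28 had their highest T-ETV1 value in array C, 27 their highest WT value in array C, and 22 (52.4%) both, against 19.7% of all genes. The log2 range over the 4 T-ETV1 arrays exceeded 3 in 12 chains and was widest in Col18a1 (5.55), Col4a2 (5.49), Col27a1 (5.43) and Col23a1 (5.12). Over the 3 WT arrays it exceeded 3 in 9 chains and was widest in Col6a2 (4.80), Col5a1 (4.41), Col17a1 (4.03) and Col6a1 (3.98). Only Col5a1 and Col17a1 had a range over 3 in both groups. The share of all genes with such ranges is not given.

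Letters A to C name arrays of both genotypes, which allows a difference within each letter, although the labels do not say whether a letter links them. Of the chains 17 were lower in T-ETV1 in all 3 letter pairs, against 16.7% of all genes. In the A and B pairs together 12 chains were lower by over 1, namely Col1a1, Col1a2, Col3a1, Col4a2, Col4a4, Col5a3, Col6a1, Col8a2, Col16a1, Col17a1, Col18a1 and Col27a1. In the C pair 5 of these were lower by over 1 too, namely Col1a1 (-3.51), Col1a2 (-3.66), Col3a1 (-2.29), Col4a4 (-1.74) and Col6a1 (-3.24). Another 5 differed by less than 0.5 in the C pair, namely Col4a2 (0.06), Col5a3 (0.01), Col16a1 (-0.48), Col18a1 (-0.06) and Col27a1 (0.39). Col17a1 lay between these (-0.64), and Col8a2 was higher in T-ETV1 C than in WT C (0.78). The type I and type III chains were thus lower within every letter, while Col4a2, Col18a1, Col16a1 and Col27a1 were lower by over 1 in the A and B pairs alone. There are 3 pairs and T-ETV1 D has none, so this division, drawn after the values were seen, was not tested. It takes each chain by its brightest probe set, and on the other probe set of Col27a1 T-ETV1 C lay below every WT array.

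**Figure D4:**
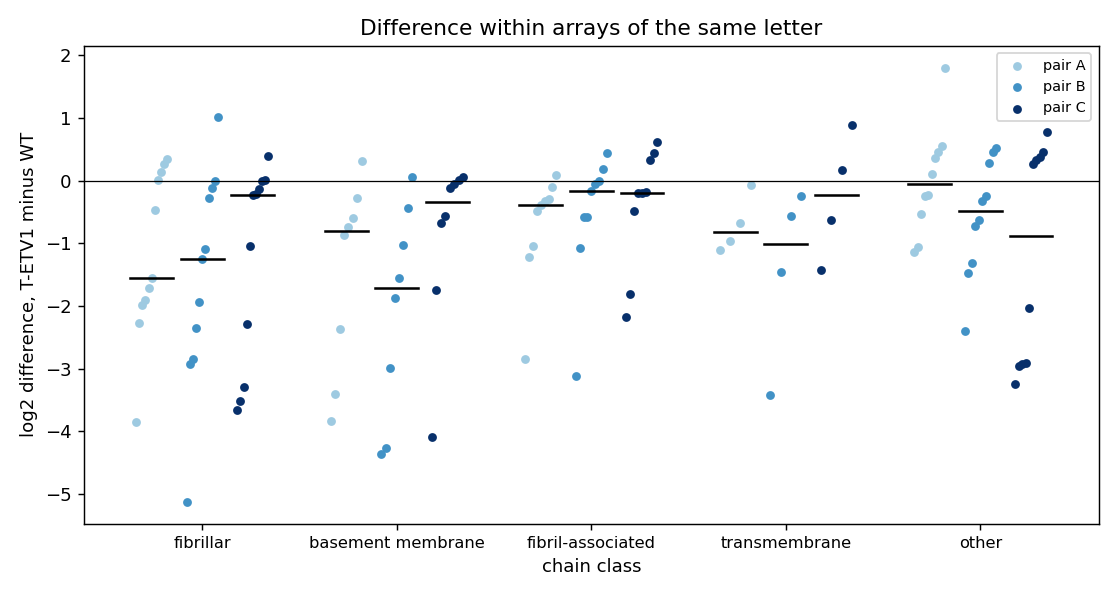
Log2 difference, T-ETV1 minus WT, of each chain (points) within the arrays of letter A, B and C (shades), by chain class, with the median of each set as a line. In the basement membrane class the median is -0.81 in pair A, -1.72 in pair B and -0.34 in pair C, where Col15a1 at -4.09 is the lowest point.

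Genes that fold, trim and bind collagen were measured beside the chains. Of 19 folding and modification genes 13 (68.4%) were lower in T-ETV1 on average, as were 55.6% of all genes. The median of the list was -0.19, with -0.10 without T-ETV1 A, -0.09 without WT B and -0.33 without T-ETV1 C. By limma 0 passed, and 2 had an unadjusted p under 0.05, against 6.12% of all genes. The 2 were P3h3, a prolyl 3-hydroxylase family member, and Plod1, a lysyl hydroxylase. P3h3 had 293, 219.6, 299 and 364 in T-ETV1 A to D, against 513, 421 and 439 in WT A to C, with no overlap and a difference of -0.63 ± 0.18 (limma adjusted p = 0.722). Plod1 had 176, 157, 266 and 202 in T-ETV1 A to D, against 264, 266 and 284 in WT A to C, and T-ETV1 C met the WT arrays (difference -0.44 ± 0.18). Crtap and P3h1, partners in the prolyl 3-hydroxylation complex, differed by -0.85 ± 0.38 and -0.52 ± 0.24.

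Of 14 trimming and cross-linking genes 13 (92.9%) were lower, as were 55.6% of all genes. The median of the list was -0.95, with -0.23 without WT C and -1.46 without WT A. By limma 0 passed, and 2 had an unadjusted p under 0.05, against 6.12% of all genes. Pcolce, which enhances removal of the C-terminal propeptide, had 30.6, 63.7, 88.4 and 18.1 in T-ETV1 A to D, against 137, 191 and 1056 in WT A to C, with no overlap (difference -2.42 ± 0.74, limma adjusted p = 0.741). Fmod, a small proteoglycan that binds fibrils, had 37.3, 47.2, 5255 and 169 in T-ETV1 A to D, against 1740.3, 3921 and 7045 in WT A to C (difference -3.93 ± 1.63). Sparc, which binds collagen and assists its deposition, had 163, 245, 4685 and 406 in T-ETV1 A to D, against 1355, 3089.6 and 5418 in WT A to C (difference -2.37 ± 1.17). On the brightest probe sets, T-ETV1 C was at the WT level for Fmod and Sparc, as for Col4a2 and Col18a1. It lay below the WT arrays for Pcolce, as for Col1a2 and Col3a1. Bmp1, the C-propeptidase itself, differed by -0.36 ± 0.19. The list shares Dcn and Lum with the fibroblast markers.

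Of 9 receptor and uptake genes 8 (88.9%) were lower, as were 55.6% of all genes. The median of the list was -0.30, and -0.52 without T-ETV1 D. By limma 0 passed, and 0 had an unadjusted p under 0.05, against 6.12% of all genes. The smallest p-values were those of the leukocyte receptor Lair1 (-0.74 ± 0.43), the integrin chain Itga1 (-0.72 ± 0.45), the receptor kinase Ddr2 (-1.28 ± 0.85) and the platelet receptor Gp6 (-0.24 ± 0.17). Ddr2 had 14.1, 20.7, 36.4 and 24.1 in T-ETV1 A to D, against 22.5, 32.2 and 449 in WT A to C, and WT C alone stood apart.

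**Figure D5:**
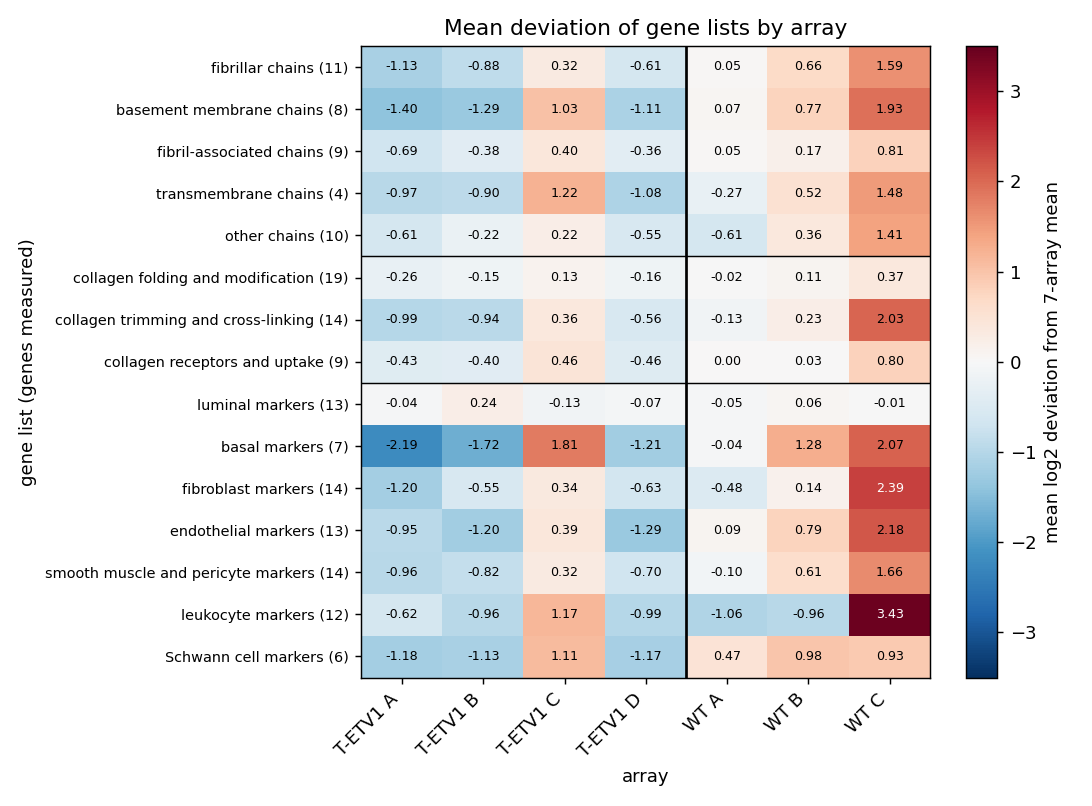
Mean over each gene list of the log2 deviation from the 7-array mean, by array, with the number of genes measured in brackets, T-ETV1 arrays at the left of the line and WT arrays at its right. Basement membrane chains are at -1.40, -1.29, 1.03 and -1.11 in T-ETV1 A to D and at 0.07, 0.77 and 1.93 in WT A to C, basal markers at -2.19, -1.72, 1.81 and -1.21 in T-ETV1 and at -0.04, 1.28 and 2.07 in WT, and luminal markers between -0.13 and 0.24 throughout.

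Averaged over a class and set against its own mean over the 7 arrays, fibrillar chains were at -1.13, -0.88, 0.32 and -0.61 in T-ETV1 A to D, against 0.05, 0.66 and 1.59 in WT A to C. Fibroblast markers were at -1.20, -0.55, 0.34 and -0.63 in T-ETV1 A to D, against -0.48, 0.14 and 2.39 in WT A to C. Transmembrane chains were at -0.97, -0.90, 1.22 and -1.08 in T-ETV1 A to D, against -0.27, 0.52 and 1.48 in WT A to C. In all these lists C was the highest array of each genotype, and T-ETV1 C lay above WT B for the transmembrane and basement membrane chains and the basal and fibroblast markers, while it lay below WT B for the fibrillar chains. The luminal list had T-ETV1 C as its lowest array.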

How the data were processed

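Per the labels' protocols, RNA came from a Trizol extraction, was amplified by the NuGEN V2 method and was read on Affymetrix whole-genome mouse arrays. The authors deposited 1 linear intensity per probe set and array. How probes were summarised and arrays scaled is not given in the sources used here. That scaling was kept, as array medians differed by 0.476 on the log2 scale, less than a limit of 0.5. Of the values 1907 (0.605%) were at or under 1.

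Of 45037 probe sets 34945 had 1 gene symbol in the platform annotation, 932 had several, and 9160 were not listed. Of those with 1 symbol, 34741 were matched to a RefSeq symbol through gene IDs, and 18193 genes were kept by their brightest probe set. The log2(intensity + 16) values were fitted with limma 3.58.1 in R 4.3.3 (lmFit, eBayes, 6.67 degrees of freedom), T-ETV1 minus WT, with Benjamini-Hochberg adjustment over all genes and a threshold of 0.05. The fit was tested on simulated data.

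Letters A to C in the labels occur in both genotypes, and the labels do not say whether they link arrays. Deviations from the group means correlated at 0.281, 0.217 and 0.356 within letters A, B and C, all over a limit of 0.1. T-ETV1 D and WT A, of unlike letters, also passed it at 0.187, so this limit cannot establish pairing. The fit reported was unpaired, and letters served as pairs only for the differences within a letter and an alternative fit. Over the chains alone the correlations were 0.399 for A, -0.098 for B and 0.273 for C. The letter was a block in an alternative fit of these 6 arrays, whose differences equal those without T-ETV1 D.

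The text names every measured chain, up to 4 genes with the smallest p of each list of folding, trimming and receptor genes, and the defining markers of other cell types. Members and lists were chosen with earlier results of these data known. Col6a6, Col21a1 and Col28a1 were not analysed here. Alternatives were quantile normalization, median centring, other pseudocounts (1 and 64), leaving out the dimmest 30% or 50% of genes, other probe set rules, a variance trend, array weights, the letter block, leaving out each array, and leaving out both arrays C.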

Additional observations from a re-analysis of the deposited data

Results flagged for a closer look

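In 6 of the 42 chains 1 of the 4 T-ETV1 arrays lay far from the other 3, with a gap that was large against the whole range of the group by Dixon's criterion. WT, with 3 arrays, was not examined in this way, and chance alone would mark about 1 in 20 groups. In 4 of the 6 the array was T-ETV1 C and was high. For Col4a2 its log2 level was 10.04, with the others between 4.55 and 5.19. For Col4a3 it was 7.74, with the others between 4.86 and 5.27. For Col5a3 it was 6.85, with the others between 4.20 and 4.55. For Col16a1 it was 8.88, with the others between 4.96 and 5.21. Col8a1 was highest in T-ETV1 A, at 6.13, with the others between 4.25 and 4.38. This was an intensity of 53.9, and its other probe sets had 10.99 and 9.61 in T-ETV1 A. Col24a1 was highest in T-ETV1 B, at 5.16, with the others between 4.20 and 4.34. This was an intensity of 19.8 against 2.43 to 4.28, all low values, and Col24a1 stayed under 50 on every array.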

How the results depend on the processing

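Of the 42 chains 24 kept the direction of their difference under every alternative run and 18 did not, in 44 of 749 values. By limma, 0 chains passed the threshold with each alternative but 1, and Col16a1 passed without both arrays C, a setting chosen after seeing the data. Over all genes 0 passed in the fit reported, 0 to 27 when single arrays were left out (27 without T-ETV1 C and 7 without WT C). With both arrays C left out 68 passed. The 7 chains at an unadjusted p under 0.05 became 4 with a pseudocount of 64, and 4 and 3 without the dimmest 30% and 50% of genes. They became 18 with array weights, 13 with the replicate block, 13 without both arrays C, and 2 to 16 when single arrays were left out. For these settings the share of all genes at that p is not given, so the counts cannot be set against it. The replicate block, fitted on the 6 arrays without T-ETV1 D, changed no call at the adjusted threshold; leaving out T-ETV1 D alone gave 5 chains at an unadjusted p under 0.05. The median over the chains was -1.27 with a pseudocount of 1, -0.44 with 64 and -0.64 without T-ETV1 D, with or without the block. Median centring turned Col2a1 (0.015), Col4a5 (0.033), Col9a2 (0.011), Col10a1 (0.027) and Col11a2 (0.098), and quantile normalization turned Col11a2 (0.011). Array weights turned Col4a5 (0.21) and Col6a3 (-0.38), and leaving out T-ETV1 D turned Col6a3 (-0.32) and Col11a2 (0.0029), with the same values under the replicate block. Without both arrays C, Col4a5 (0.18), Col6a5 (0.031), Col8a1 (0.31), Col11a2 (0.067) and Col22a1 (-0.028) turned. Other probe sets of a gene had the opposite sign for Col6a4 (0.030), Col9a1 (0.060), Col9a3 (0.024), Col12a1 (0.091 and 0.11), Col19a1 (-0.038 and -0.069) and Col22a1 (-0.025). With single arrays left out, the sign turned within the ranges of Col4a5 (-0.37 to 0.30), Col6a3 (-0.62 to 0.60), Col6a4 (-0.86 to 0.18), Col6a5 (-1.54 to 0.044), Col7a1 (-0.69 to 0.057), Col8a1 (-1.27 to 0.15), Col9a2 (-0.31 to 0.038), Col10a1 (-0.25 to 0.013), Col11a2 (-0.20 to 0.095), Col14a1 (-1.90 to 0.061), Col20a1 (-0.68 to 0.0032), Col22a1 (-0.067 to 0.24) and Col24a1 (-0.17 to 0.18). The cause of these turns was not tested. With 3 and 4 arrays and no detection calls, differences of chains under an intensity of 50 have little signal behind them.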
